A study of Danio rerio with 6 samples.

Results

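The Rab genes of zebrafish were described in sorted trunk cells. Members were all entries of the deposited count table whose gene symbol is rab followed by a number and at most 2 of the letters a to d, which took 65 of 32520 genes. A member counted as expressed with 10 or more counts in at least 2 of the 6 libraries, and 61 of the 65 were. Cells came from the dissected trunks of embryos of wildtype genotype at 24 hours post fertilization, reared at 28 °C. All embryos carried both sox10:mRFP, a transgene that marks neural crest cells, and prdm1a:eGFP, a transgene that marks slow-twitch muscle and muscle pioneer cells. The libraries formed 3 groups of 2: untreated slow muscle (replicates 1 and 2), untreated neural crest (also replicates 1 and 2), and neural crest of embryos exposed to cyclopamine (replicates 3 and 4). Exposure was to 100 µM, starting at 50% epiboly and lasting until collection. Cyclopamine inhibits Smoothened, which relays Hedgehog signals across the membrane. A vehicle for the untreated embryos is not stated. The untreated neural crest libraries have slow-twitch in their titles, whereas their tissue field names neural crest. Since the labels leave it unsaid whether replicates are separate pools, the p-values reflect the spread between these libraries, which may be technical.

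Rab proteins are small GTPases that switch between a GTP-bound form, which sits on a membrane and recruits effectors, and a GDP-bound form, which is taken back into the cytosol. Each marks a particular compartment, so that vesicles are carried to and tethered at the right target membrane. Pigment cells, which arise from the neural crest, use a dedicated set: in mammals Rab32 and Rab38 bring melanin-forming enzymes to the maturing melanosome, and Rab27a, with its effector melanophilin and the motor myosin Va, holds the finished melanosome at the actin cortex. Lysosome-related organelles such as the melanosome branch off the endosomal route along which Rab5 and Rab7 act in turn. The members were ordered here by the role their Rab number is generally known for, mostly from mammals.

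Total counts ranged from 15355583 to 26441238 per library. Levels are given as CPM, that is, counts divided by the TMM-adjusted size of their library and put on a shared scale, on which 3 counts, taken as the floor of detection, were worth 0.127 to 0.177 CPM. CPM ignores transcript length, so levels were compared between groups and not between genes. Summed CPM of 8 slow muscle markers was 55500 and 26500 in slow muscle, and between 111 and 212 in the 4 neural crest libraries. Summed CPM of 8 neural crest markers was 242 and 257 in slow muscle, and between 5870 and 8070 in the neural crest libraries. Both labels thus matched their markers. The slow muscle libraries also held more of the epidermis markers (9640 and 13400 CPM against 797 to 2000 in the neural crest libraries), the endothelium markers (1610 and 1770 against 111 to 227) and the pronephros and ionocyte markers (866 and 1610 against 87.6 to 188). In cyclopamine replicate 4, 27.4% of the tested genes were at 0, against 8.84% to 17.3% in the other libraries. Of the 61 expressed Rab genes, 15 were at 0 in that library and 3 to 10 in each of the others.

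Almost all Rab counts were either 0 or at 10 or more, and the same share over all genes is not given here. Of the 390 values of the 65 members over 6 libraries, 69 were 0, 321 were not, and 2 of those 321 lay between 1 and 9 counts. The 4 members that were not expressed were rab32b and rab39bb, at 0 in every library, and rab3aa and rab3b, which had 93 and 24 counts in slow muscle replicate 2 alone. Among those just above the limit, rab3ab had 45 counts in untreated replicate 2 and 40 in cyclopamine replicate 3, and none elsewhere. Across the 61 expressed members, Spearman's rho between the 2 replicates of a group was 0.909 for slow muscle, 0.94 for untreated neural crest and 0.861 for cyclopamine neural crest, across genes that share libraries and are no independent replicates. Nevertheless 8, 10 and 12 members, respectively, were at 0 in one replicate and at 10 counts or more in the other. Fold bounds set below against a floor of 3 counts do not allow for such zeros. All 61 also passed the filter of the test across all genes.

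The first comparison, slow muscle against untreated neural crest, asks how the Rab genes differ between the sorted muscle and crest cells. Of the 61 Rab genes, 4 were lower in slow muscle and 0 were higher (edgeR's quasi-likelihood test, adjusted p below 0.05 over 17701 genes). All 4 belong to the pigment organelle group: rab27a, rab27b, rab32a and rab38c. They are 6.56% of the members, beside 0.876% of all tested genes called lower (155) and 1.67% called higher (296). Higher calls made up 65.6% of all called genes with TMM and 52.4% with upper quartile scaling. Of the members 31 fitted higher (50.8%, beside 52.4% of all tested genes) and 30 lower, with a median log2 fold change of 0.02 beside 0.08 for all tested genes. Summed over all roles, the level was 2294 and 2807 CPM in slow muscle and 3232 and 3028 in untreated neural crest. At an unadjusted p below 0.05, 2 Rab genes were higher and 7 lower, 3.28% and 11.5% of the members beside 11.5% and 7.67% of all tested genes. DESeq2 called 2 higher, rab25b and rab43, and 6 lower, adding rab7a and rab34b to the other 4, beside 10.3% and 5.01% of all tested genes. The 2 groups did not overlap for 13 members higher in slow muscle (21.3%) and 15 lower (24.6%), beside 33.6% and 27.3% of all tested genes.

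Within the pigment organelle group, the Rab32 subfamily came first. The melanosome cargo GTPase rab32a (ENSDARG00000029036) was at 7.07 and 15.8 CPM in slow muscle, 168 and 152 in untreated and 127 and 68.6 in cyclopamine neural crest. Both slow muscle libraries lay below all 4 neural crest libraries, with a mean of 11.4 ± 6.18 CPM (SD, n = 2) against 159.9 ± 11.1 in the untreated ones. Its log2 fold change was −3.80 ± 0.56 (SE; edgeR adjusted p = 0.0346). Of its close relatives, rab38c (ENSDARG00000074719) was at 0 in both slow muscle libraries, at 18.03 and 14.4 CPM in the untreated and at 18.5 and 13.1 in the cyclopamine libraries. Its level was at least 114-fold lower in slow muscle, against a floor of 3 counts per library that covers counting error only (edgeR adjusted p = 0.0346). The other Rab38 gene, rab38b (ENSDARG00000112889), was at 0 and 0.972 CPM in slow muscle, 7.12 and 14.5 in untreated and 3.80 and 13.6 in cyclopamine neural crest. Its groups did not overlap either, but with a log2 fold change of −4.45 ± 2.14 it was not called (edgeR adjusted p = 0.313, DESeq2 0.0804). The fitted value moved to −3.52 without slow muscle replicate 1 and to −10.74 without replicate 2, where the library that remains is at 0. The remaining member, rab32b, was at 0 in all 6 libraries.

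Both Rab27 genes were also lower in slow muscle. rab27a (ENSDARG00000103935), the counterpart of the melanosome tether of mammals, was at 5.17 and 11.3 CPM in slow muscle, 66.6 and 67.0 in untreated and 46.3 and 40.7 in cyclopamine neural crest. Its slow muscle libraries stood below all others, 8.12-fold lower than the untreated mean (log2 fold change −3.02 ± 0.52, edgeR adjusted p = 0.047). Its paralogue rab27b (ENSDARG00000087762) was at 0 in both slow muscle libraries, at 83.8 and 70.7 CPM in untreated and at 42.8 and 63.8 in cyclopamine neural crest. Against the same floor, which covers counting error only, this gene was at least 542-fold lower in slow muscle (edgeR adjusted p = 0.0132). Leaving out single libraries left the directions in place and moved some calls: rab27b was called in every such fit, rab27a was lost without slow muscle replicate 1 or either untreated replicate (adjusted p between 0.119 and 0.172), rab32a without the same libraries (0.0524 to 0.091), and rab38c without any of the 4 compared libraries (0.0597 to 0.0884).

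**Figure D1:**
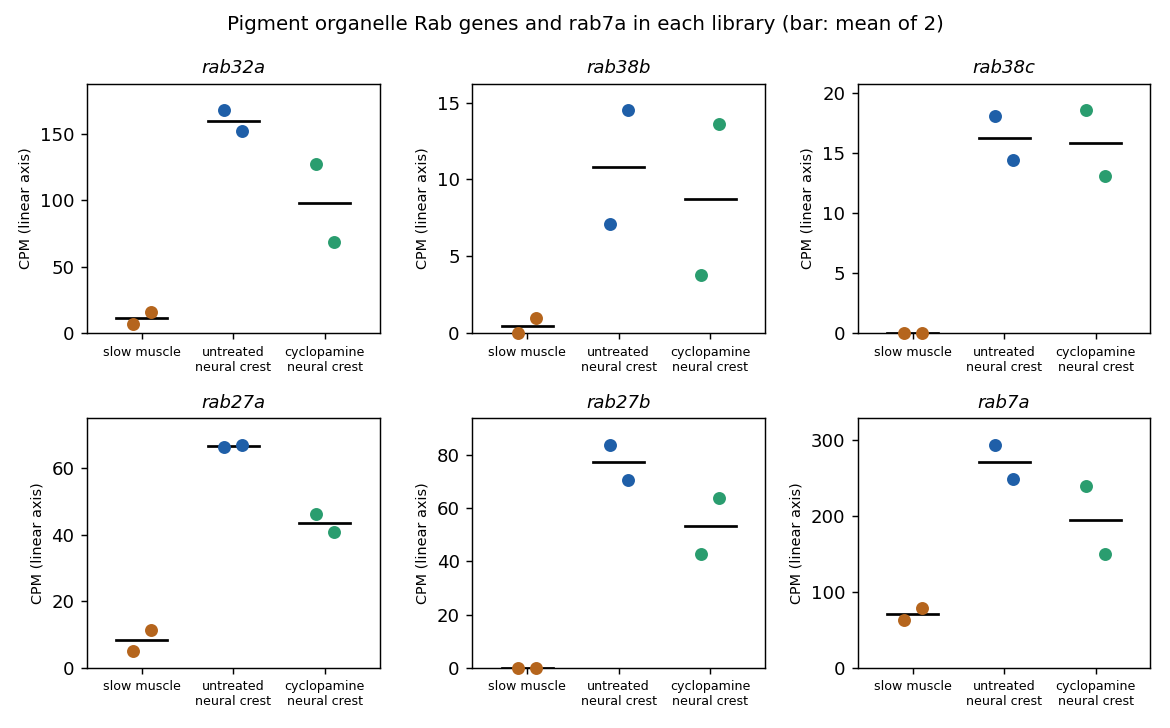
Level of the 5 expressed pigment organelle Rab genes and of rab7a in each library, in CPM on a linear axis from 0, with points for the 2 libraries of each group and a bar at the mean of 2. For all 6 genes both slow muscle points lie below the 4 neural crest points, and rab27b and rab38c are at 0 in slow muscle.

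Summed over the group, the pigment organelle Rab genes reached 12.2 and 28.1 CPM in slow muscle, 343 and 319 in untreated and 238 and 199.8 in cyclopamine neural crest. Their median log2 fold change in slow muscle was −4.45, beside 0.08 for all tested genes. Pigment cell markers moved in the same direction. The 13 melanophore markers, among them tyr, pmela, trpm1b and mitfa, summed to 5.70 and 8.87 CPM in slow muscle and to 2720 and 2350 in untreated neural crest. Of these 13 markers, 12 and 10 were at 0 in the 2 slow muscle libraries, and 6 of 12 tested were called lower (0.876% of all tested genes). The xanthophore list (called examples pax7a, pax7b, xdh and slc2a15b) had 4 of 8 called lower (0.876% of all tested genes), with sums of 16.9 and 30.7 against 4850 and 4760 CPM. The iridophore list had 2 of 6 called lower (0.876% of all tested genes), ltk and alx4a, with sums of 71.1 and 48.1 against 748 and 744 CPM. The part of these cells in the Rab levels was not tested. In such bulk samples, fewer cells of a type and less RNA per cell cannot be told apart.

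**Figure D2:**
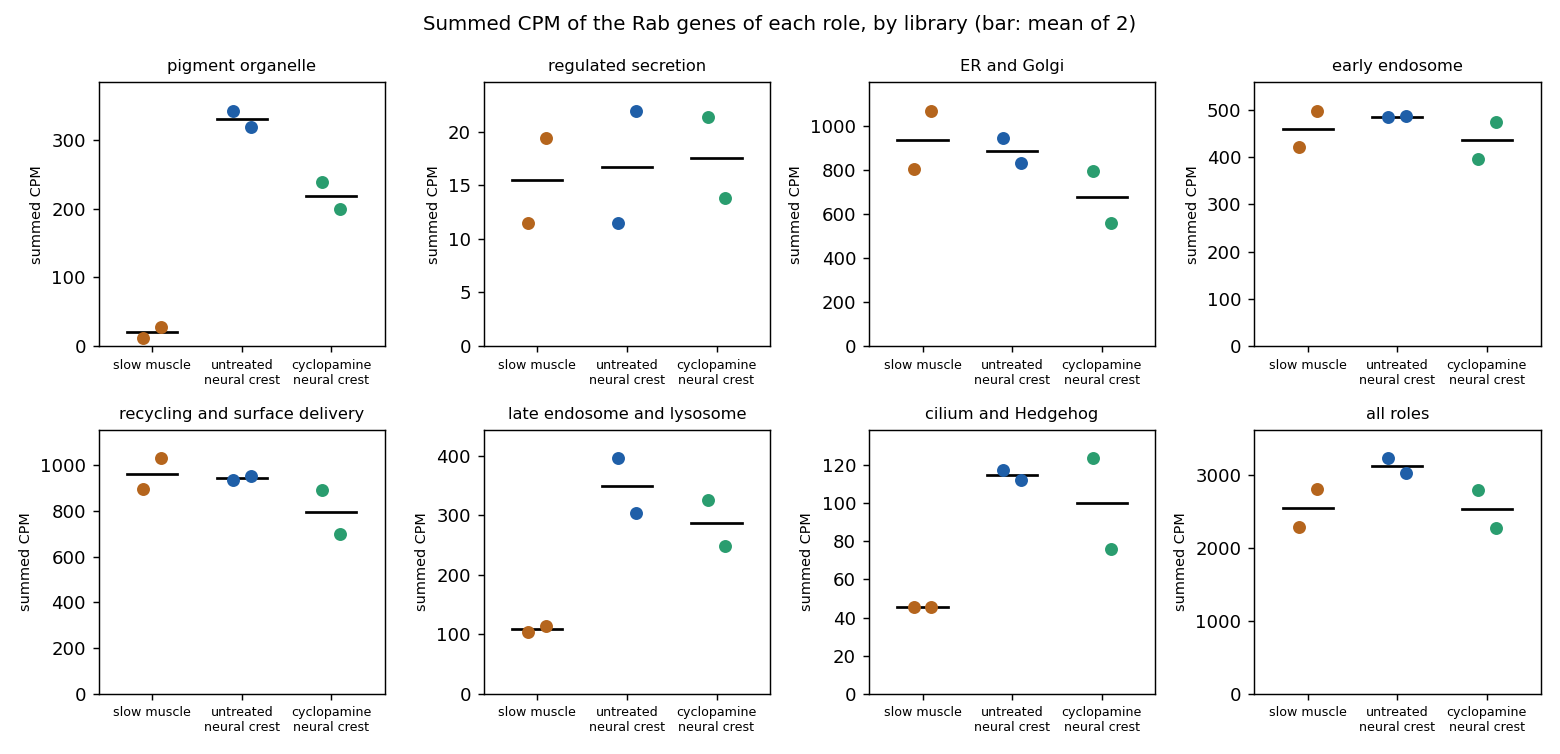
Summed CPM of the Rab genes of each role and of all roles in each library, on linear axes from 0 with a scale of their own, as points with a bar at the mean of 2. Slow muscle lies far below both neural crest groups for the pigment organelle genes (12.2 and 28.1 CPM against 199.8 to 343). It also lies below them in the sums of the late endosome genes and of the cilium and Hedgehog genes. Of the latter, rab34b is lower in slow muscle than in untreated neural crest, rab23 is higher and rab34a overlaps. The recycling, early endosome and ER and Golgi sums overlap between slow muscle and untreated neural crest.

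The late endosome and lysosome Rab genes followed, of which 0 of 6 were called. rab7a (ENSDARG00000020497), which drives the fusion of late endosomes with lysosomes, was at 63.5 and 79.3 CPM in slow muscle, 293 and 248.5 in untreated and 239 and 150.3 in cyclopamine neural crest. All 4 neural crest libraries lay above both slow muscle libraries, with a log2 fold change of −1.92 ± 0.36 that just missed the threshold (edgeR adjusted p = 0.0554, DESeq2 6.02e-05). It passed in 7 of 14 alternative analyses. Among them was the fit of only the 4 compared libraries (edgeR adjusted p = 0.0138), beside 1608 genes higher and 760 lower over all genes. The main fit called 296 and 155. The fits without a cyclopamine replicate, also among the 7, leave 1 library in that group. Without any of the 4 compared libraries rab7a did not pass, at log2 fold changes from −2.11 to −1.81. The second Rab7 gene, rab7b, was at 22.4 and 20.9 CPM in slow muscle, 88.5 and 32.8 in untreated and 52.8 and 59.0 in cyclopamine neural crest. Slow muscle was the lowest group, at −1.49 ± 0.54 on the log2 scale (edgeR adjusted p = 0.216). The remaining 4 members of the role had adjusted p-values from 0.679 to 1. Summed over the role, the level was 103 and 114 CPM in slow muscle and 395 and 303 in untreated neural crest.

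Of the cilium and Hedgehog role, 3 genes were expressed and 0 were called. rab23 (ENSDARG00000004151), a negative regulator of Hedgehog signalling in mouse, was at 29.9 and 31.9 CPM in slow muscle, 6.59 and 8.52 in untreated and 7.11 and 27.95 in cyclopamine neural crest. Slow muscle was above all neural crest libraries, and cyclopamine replicate 4 came close to it. The log2 fold change of slow muscle was 2.03 ± 0.79 (edgeR adjusted p = 0.243, DESeq2 0.0952), and the gene was called in 3 of 14 alternative analyses. With only the 4 compared libraries rab23 was called (edgeR adjusted p = 0.0435), beside 1608 genes higher and 760 lower over all genes. The main fit called 296 and 155. Its other calls came from fits without a cyclopamine replicate, which leave 1 library in that group (log2 fold change 2.03 in each). Without any of the 4 compared libraries rab23 was not called, at log2 fold changes from 1.85 to 2.23. rab34b (ENSDARG00000010977), one of the pair of zebrafish genes for Rab34, which acts in cilium formation in mouse, was at 2.11 and 0 CPM in slow muscle, 96.25 and 95.7 in untreated and 90.6 and 38.1 in cyclopamine neural crest. Slow muscle stood far below both neural crest groups, 91.0-fold below the untreated mean. One slow muscle library was at 0, and the gene was not called (log2 fold change −6.52 ± 1.72, edgeR adjusted p = 0.12, DESeq2 8.9e-05). A fit without 1 library leaves a single library in that group, whose spread is then taken from the other groups. The calls of rab34b differed between such fits and are not given. Its log2 fold change was −6.56 without cyclopamine replicate 3 and −6.55 without replicate 4. Without untreated replicate 1 it was −6.54, and without untreated replicate 2 it was −6.53. The fitted log2 fold change was −5.52 without slow muscle replicate 2 and −13.97 without replicate 1, where the library that remains is at 0 and the value is no bound. Its paralogue rab34a (ENSDARG00000045628) was at 13.5 and 13.8 CPM in slow muscle, 14.8 and 7.99 in untreated and 25.9 and 10.1 in cyclopamine neural crest. The groups of rab34a overlapped (log2 fold change 0.26 ± 0.76, edgeR adjusted p = 0.933).

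**Figure D3:**
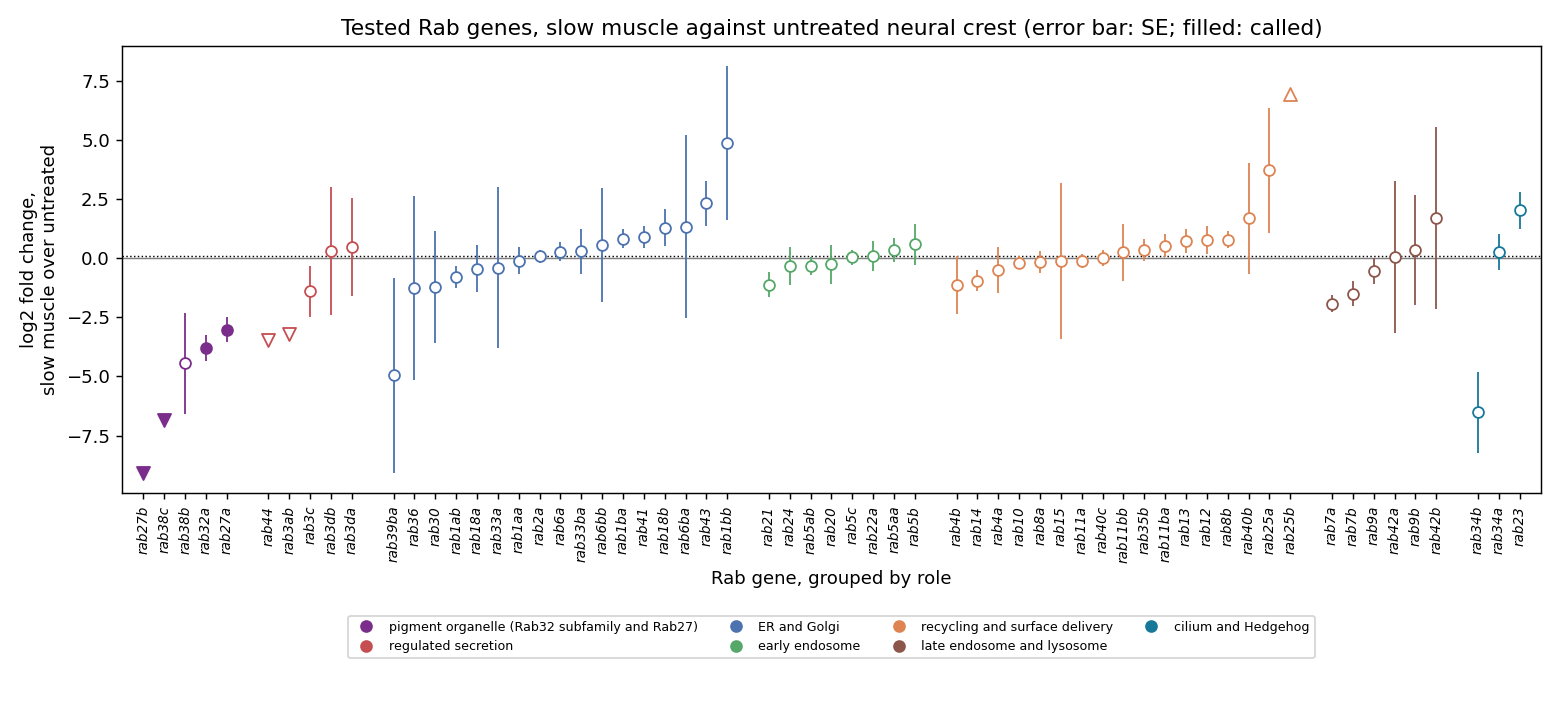
Log2 fold change of slow muscle over untreated neural crest for the 61 tested Rab genes, grouped by role and sorted within a role, with bars of 1 SE, a solid line at 0 and a dotted line at the median of all tested genes. Triangles are bounds against a floor of 3 counts per library for genes at 0 in both libraries of a group, and filled symbols are the 4 called genes, all of the pigment organelle role.

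The remaining roles had 0 members called by edgeR in either direction, and DESeq2 called rab43 and rab25b higher in slow muscle. The 17 tested ER and Golgi Rab genes had a median log2 fold change of 0.28 and adjusted p-values from 0.266 to 0.983. Of the 8 early endosome genes, the median was −0.11 with adjusted p-values from 0.309 to 0.98. The 17 recycling and surface delivery genes had a median of 0.26 with adjusted p-values from 0.121 to 0.999. Of the 7 regulated secretion genes, which include the Rab3 genes of secretory vesicles, 5 were expressed. They were low throughout, with a sum of 11.5 and 19.4 CPM in slow muscle, 11.5 and 21.95 in untreated and 21.3 and 13.8 in cyclopamine neural crest. Of these, rab3c was at 2.16 and 2.32 CPM in slow muscle, 6.69 and 5.15 in untreated and 11.2 and 9.25 in cyclopamine neural crest, with groups that did not overlap (log2 fold change −1.40 ± 1.09 for slow muscle, edgeR adjusted p = 0.533).

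The 5 Rab genes with the highest mean CPM, a choice that ignores length, were rab11a, rab1ab, rab2a, rab10 and rab7a. rab11a, which marks recycling endosomes, was at 250.2 and 297 CPM in slow muscle, 312 and 285 in untreated and 288 and 218 in cyclopamine neural crest. These ranges overlapped in both comparisons (log2 fold change −0.12 ± 0.30 for slow muscle, edgeR adjusted p = 0.907). rab1ab, of the pair of Rab1 types that carry vesicles from the ER to the Golgi, was at 171 and 218 CPM in slow muscle, 367 and 312 in untreated and 299 and 121 in cyclopamine neural crest. Both untreated libraries were above the other 4, without a call (log2 fold change −0.80 ± 0.47 for slow muscle, edgeR adjusted p = 0.401). rab2a, which acts at the Golgi, was at 223 and 280.5 CPM in slow muscle, 224 and 249.9 in untreated and 193 and 198 in cyclopamine neural crest. For rab2a the slow muscle and untreated ranges overlapped, and its log2 fold change of 0.09 ± 0.28 (edgeR adjusted p = 0.94) turned to −0.16 with upper quartile scaling and to −0.11 without slow muscle replicate 2. rab10, which serves delivery to the cell surface, was at 193 and 163 CPM in slow muscle, 203 and 204 in untreated and 180.0 and 157 in cyclopamine neural crest. The untreated libraries were the highest, with a log2 fold change of −0.19 ± 0.28 for slow muscle (edgeR adjusted p = 0.796).

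A few members were higher in slow muscle without passing the test, and they were chosen here after their values were seen. rab25b (ENSDARG00000052954), of the epithelial branch of the Rab11 subfamily, was at 6.38 and 35.4 CPM in slow muscle and at 0 in all 4 neural crest libraries. Its level was at least 124-fold higher than the floor of untreated neural crest (edgeR adjusted p = 0.121, DESeq2 1.2e-04). rab25a was at 8.28 and 12.3 CPM in slow muscle, 1.53 and 0 in untreated and 0 in both cyclopamine libraries (log2 fold change 3.73 ± 2.64, edgeR adjusted p = 0.489). The epidermis marker list was also higher in slow muscle, in 8 of 8 genes without overlap (33.6% of all tested genes), with krt97 called. The part of epidermal cells in the rab25 levels was not tested. rab43, a Golgi GTPase, was at 18.99 and 14.6 CPM in slow muscle, 4.06 and 2.603 in untreated and 4.17 and 5.26 in cyclopamine neural crest, again without overlap (log2 fold change 2.33 ± 0.96, edgeR adjusted p = 0.266, DESeq2 0.0351). Reads shared between paralogues, such as the Rab1, Rab5 and Rab11 genes, or with antisense transcripts may have been split, since neither the handling of multiply mapping reads nor the strand setting is given in the sources used here.

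The second comparison, cyclopamine against untreated neural crest, asks whether blocking Smoothened altered the Rab set of the crest. None of the 61 Rab genes was called (edgeR, 0 of 61), beside 0 of 17701 tested genes, a background of 0%. At an unadjusted p below 0.05 there were 0 Rab genes, beside 4.33% of all tested genes, and DESeq2 called 0 Rab genes, beside 1.71%. The lowest adjusted p of a member was 0.835. The fitted direction was lower for 38 members (62.3%), beside 48.2% of all tested genes, with a median log2 fold change of −0.23 beside 0 for all tested genes. The median of all tested genes was itself −0.25 without cyclopamine replicate 3, where replicate 4 stands alone. Without replicate 4 it was 0. Medians of the members in those fits are not given here. Groups did not overlap for 15 members lower with cyclopamine (24.6%) and 5 higher (8.2%), beside 16.6% and 14.6% of all tested genes. Summed over all roles the level was 2792 and 2272 CPM with cyclopamine and 3232 and 3028 without. Both comparisons use the same untreated libraries.

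The 5 pigment organelle Rab genes fitted lower with cyclopamine, as did 62.3% of all members and 48.2% of all tested genes. Their log2 fold changes ran from −0.71 to −0.04, and none was called. The log2 fold change was −0.71 ± 0.51 for rab32a (edgeR adjusted p = 0.858), −0.62 ± 0.48 for rab27a (0.888), −0.54 ± 0.42 for rab27b (0.904), −0.31 ± 1.85 for rab38b (1) and −0.04 ± 0.84 for rab38c (1). Lower without overlap were rab32a, rab27a and rab27b, beside 24.6% of all members and 16.6% of all tested genes. The ranges of the Rab38 genes overlapped. The sign of rab38c turned without untreated replicate 1 (0.11) or cyclopamine replicate 4 (0.19), and that of rab38b without untreated replicate 2 (0.30) or cyclopamine replicate 3 (0.34). Summed melanophore markers were 1980 and 883 CPM with cyclopamine against 2720 and 2350 without, with 8 of 12 tested markers lower without overlap (16.6% of all tested genes) and 0 called. In cyclopamine replicate 4, 5 of the 13 melanophore markers were at 0. Summed xanthophore markers were 2540 and 1480 CPM against 4850 and 4760, and summed iridophore markers 845 and 503 against 748 and 744. Their part in the Rab values was not tested.

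The Hedgehog-related member rab23 had a log2 fold change of 1.21 ± 0.77 with cyclopamine (edgeR adjusted p = 0.835). That value rests on cyclopamine replicate 4, since without it the log2 fold change was −0.09. For rab34a it was 0.66 ± 0.77, turning to −0.16 without cyclopamine replicate 3, and for rab34b −0.58 ± 1.34 (edgeR adjusted p = 1 for both). rab7a was at −0.48 ± 0.34 (0.861), and rab9a, which returns receptors from late endosomes to the Golgi, was at 25.7 and 25.6 CPM with cyclopamine and 13.6 and 15.3 without (log2 fold change 0.82 ± 0.55, edgeR adjusted p = 0.837). Its groups did not overlap, and slow muscle lay below both at 10.5 and 9.51 CPM. Among the most abundant members, the log2 fold change was −0.24 ± 0.30 for rab11a, −0.69 ± 0.47 for rab1ab, −0.28 ± 0.28 for rab2a and −0.27 ± 0.28 for rab10. Without cyclopamine replicate 3, which leaves replicate 4 alone and assumes that it varies like the other groups, 2 Rab genes were called lower, beside 968 of 19889 tested genes. They were rab1ab (−1.48, edgeR adjusted p = 0.0418) and rab18b, a GTPase of the ER and lipid droplets at 27.2 and 30.9 CPM in untreated neural crest and at 27.3 and 5.12 in the cyclopamine replicates 3 and 4.

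**Figure D4:**
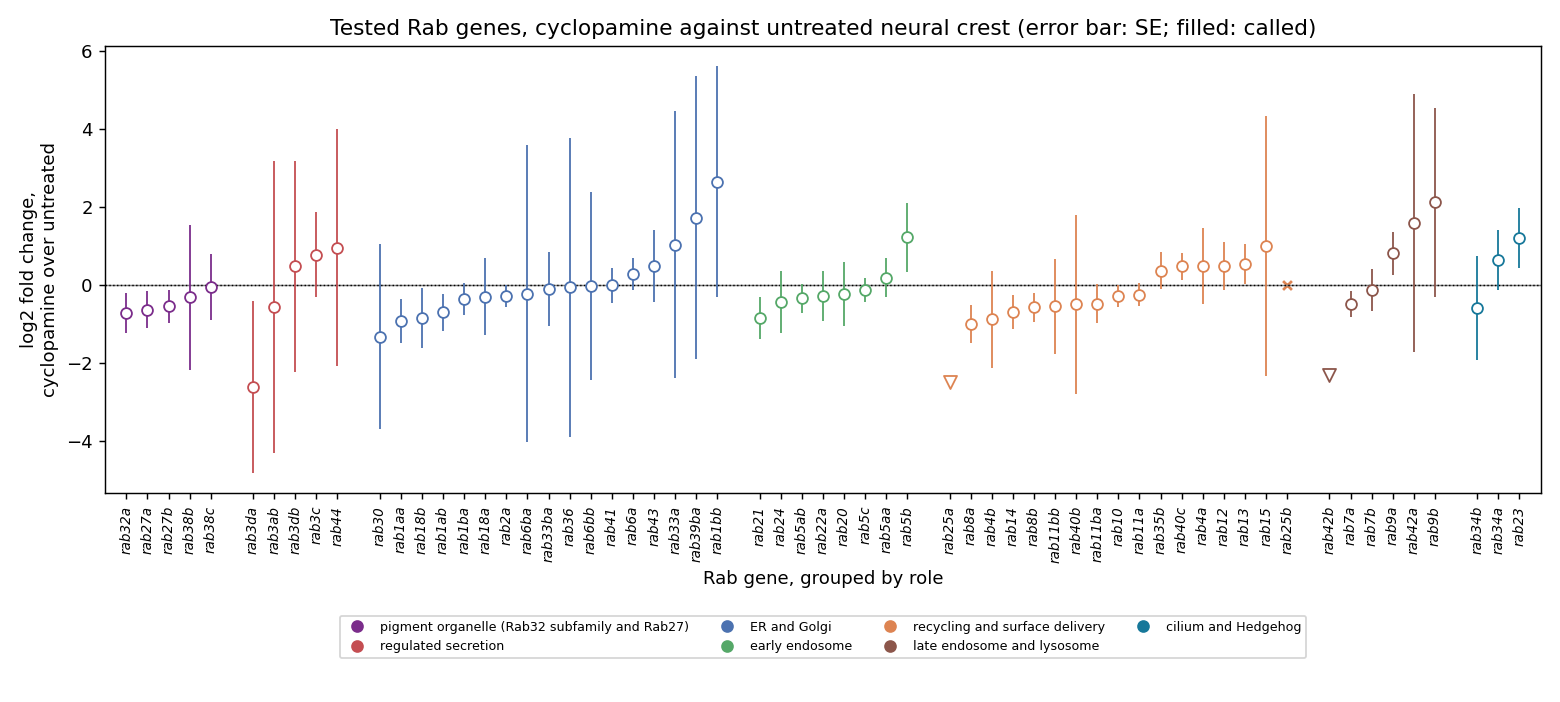
Log2 fold change of cyclopamine over untreated neural crest for the 61 tested Rab genes, drawn and grouped as for slow muscle, with bars of 1 SE and triangles for bounds against a floor of 3 counts per library. No symbol is filled, since 0 genes were called, and the cross marks rab25b, which was at 0 in all 4 libraries.

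The partners of Rab proteins were described from 9 lists with 138 tested genes. In slow muscle against untreated neural crest 2 were higher and 2 lower (edgeR, adjusted p below 0.05), beside 1.67% and 0.876% of all tested genes. DESeq2 called 8 higher and 16 lower, beside 10.3% and 5.01%. The 2 that fell belong to complexes of lysosome-related organelle formation. hps4 (ENSDARG00000013795), a subunit of BLOC-3, the activator of Rab32 and Rab38 in mammals, was at 10.02 and 10.5 CPM in slow muscle, 55.9 and 74.4 in untreated and 36.5 and 53.6 in cyclopamine neural crest. It was lower in both slow muscle libraries than in any neural crest library (log2 fold change −2.66 ± 0.43, edgeR adjusted p = 0.0401). dtnbp1a (ENSDARG00000055115), a gene for the dysbindin subunit of BLOC-1, which sorts cargo from endosomes to melanosomes, was at 8.23 and 17.0 CPM in slow muscle, 99.4 and 70.3 in untreated and 111 and 106 in cyclopamine neural crest. Slow muscle was again below all 4 (log2 fold change −2.75 ± 0.47, edgeR adjusted p = 0.0485). The other dysbindin gene, dtnbp1b, chosen after its values were seen, was not lower in slow muscle. It was at 0 and 12.2 CPM there, 0 in both untreated libraries and 5.48 and 0 in the cyclopamine libraries (edgeR adjusted p = 0.368 for slow muscle). All 4 tested genes of BLOC-2 and BLOC-3 were lower in slow muscle without overlap, with a median of −2.36, 1 called and 3 called by DESeq2. Over all tested genes 27.3% were lower without overlap, and DESeq2 called 5.01% lower. Of the 9 BLOC-1 genes 6 were lower without overlap, with a median of −1.01, 1 called and 1 called by DESeq2.

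Among the lists with no gene called by edgeR, the melanosome transport list (13 tested) had a median of 1.02 in slow muscle, beside 0.08 for all tested genes. Of its members 6 were higher and 2 lower without overlap, beside 33.6% and 27.3% of all tested genes. DESeq2 called 1 higher and 2 lower, beside 10.3% and 5.01%. myo5aa (ENSDARG00000061635), a zebrafish gene for the melanosome motor myosin Va, was at 5.85 and 21.7 CPM in slow muscle, 172 and 137 in untreated and 155 and 129 in cyclopamine neural crest. Without a call, its log2 fold change in slow muscle was −3.48 ± 0.67 (edgeR adjusted p = 0.0586, DESeq2 1.28e-05). The other listed myosin Va gene, myo5ab, picked once its values were known, was not clearly lower. Its slow muscle libraries held 21.7 and 6.84 CPM and its untreated libraries 14.1 and 22.1, so that the ranges overlapped. The fitted change of myo5ab was −0.34 ± 0.82 on the log2 scale, with 0.907 as adjusted p by edgeR. myo5b, a recycling motor that binds Rab11, was at 15.5 and 24.3 CPM in slow muscle and 10.2 and 13.7 in untreated neural crest (0.73 ± 0.74, edgeR adjusted p = 0.666). The melanophilin gene mlphb, chosen after its values were seen, was at 0 in both slow muscle libraries, at 24.0 and 26.03 CPM in untreated neural crest and at 20.2 and 0 in the cyclopamine libraries (edgeR adjusted p = 0.208, DESeq2 8.32e-04). In the other direction, and also chosen afterwards, sytl2a, of the synaptotagmin-like Rab27 effectors, was at 15.5 and 23.95 CPM in slow muscle against 0 and 1.54 in untreated neural crest (25.7-fold higher, edgeR adjusted p = 0.284, DESeq2 0.0354). Its relative sytl4 was at 14.9 and 12.3 CPM against 0.0527 and 2.25 (edgeR adjusted p = 0.418), and sytl2b at 5.70 and 15.8 against 0 and 1.60 (0.554). Of the 11 AP-3 and AP-1 adaptor genes, which sort cargo at endosomes, the median was −0.76. DESeq2 called 3 lower, ap3b1a, ap3d1 and ap3m2, beside 5.01% of all tested genes. Their most abundant members were ap3d1 at 65.9 and 93.0 CPM in slow muscle against 253 and 231 in untreated neural crest (edgeR adjusted p = 0.069) and ap1m1 at 89.0 and 79.9 against 162 and 124 (0.243). Neither pair of groups overlapped. Over the list, 6 genes were lower and 4 higher without overlap, beside 27.3% and 33.6% of all tested genes. ap3m2, chosen after its values were seen, was at 7.23 and 4.01 CPM against 108 and 109 (19.3-fold lower, edgeR adjusted p = 0.0767, DESeq2 2.25e-05).

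The HOPS and CORVET tethers, which act with Rab7 and Rab5, had a median of −1.08 over 10 genes. Of these 0 were called, and 4 were called lower by DESeq2, beside 5.01% of all tested genes. The most abundant tether genes were vps39 and vps16. vps39, called by DESeq2, was at 34.4 and 27.4 CPM in slow muscle against 117 and 124 in untreated neural crest (edgeR adjusted p = 0.0579). vps16, not called by DESeq2, was at 30.5 and 39.4 against 72.2 and 56.9 (edgeR adjusted p = 0.244). The general machinery of the GTPase cycle centred near 0. Medians were −0.09 for 7 prenylation and recycling genes, −0.04 for 30 activators, 0.00 for 26 inactivators and 0.19 for 28 other effectors. In the first of these lists gdi2, which extracts Rab proteins from membranes, was at 432 and 453 CPM in slow muscle against 447 and 498 in untreated neural crest (edgeR adjusted p = 0.944). Among activators sbf1 was at 71.3 and 91.3 CPM against 163 and 168 (edgeR adjusted p = 0.152), and dennd4c at 125 and 108 against 54.0 and 63.1 (0.277). The 2 partner genes that rose were tbc1d4 and rab11fip4b. tbc1d4 (ENSDARG00000075156), in mammals a Rab inactivator that controls glucose transporter delivery in muscle and fat, was at 188 and 226 CPM in slow muscle, 55.6 and 58.9 in untreated and 80.2 and 108 in cyclopamine neural crest, and its log2 fold change in slow muscle was 1.85 ± 0.31 (edgeR adjusted p = 0.0463). rab11fip4b (ENSDARG00000103207), a Rab11 effector, was at 124 and 89.7 CPM in slow muscle, 5.06 and 2.603 in untreated and 3.31 and 3.01 in cyclopamine neural crest, with 4.80 ± 0.55 on the log2 scale for slow muscle (edgeR adjusted p = 0.0196). For both genes the slow muscle libraries stood above all 4 others. The edgeR calls of tbc1d4, hps4 and dtnbp1a lay close to the threshold of 0.05. No partner call was followed under the other filters, scalings or sets of libraries.

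With cyclopamine 0 of the 138 partner genes were called by edgeR, and the medians of the lists lay between −0.43 for BLOC-1 and 0.20 for the other effectors (0.09 with genes at 0 in a group set at their bound). DESeq2 called 3 of the 138, beside 1.71% of all tested genes, and they are named here for that. rab11fip1a was at 33.5 and 31.3 CPM in the untreated and at 3.58 and 4.65 in the cyclopamine libraries (7.88-fold lower, DESeq2 adjusted p = 0.00371, edgeR 0.79). rab11fip1b went from 7.49 and 8.40 CPM to 0 in both cyclopamine libraries, at least 57.4-fold lower against the floor of 3 counts (DESeq2 adjusted p = 2.42e-04, edgeR 0.806). mical1, whose product oxidises actin and binds several Rab proteins, went from 0 in both untreated libraries to 4.30 and 3.95 CPM. This was at least 24.6-fold higher against the same floor (DESeq2 adjusted p = 0.00121, edgeR 0.835).

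**Figure D5:**
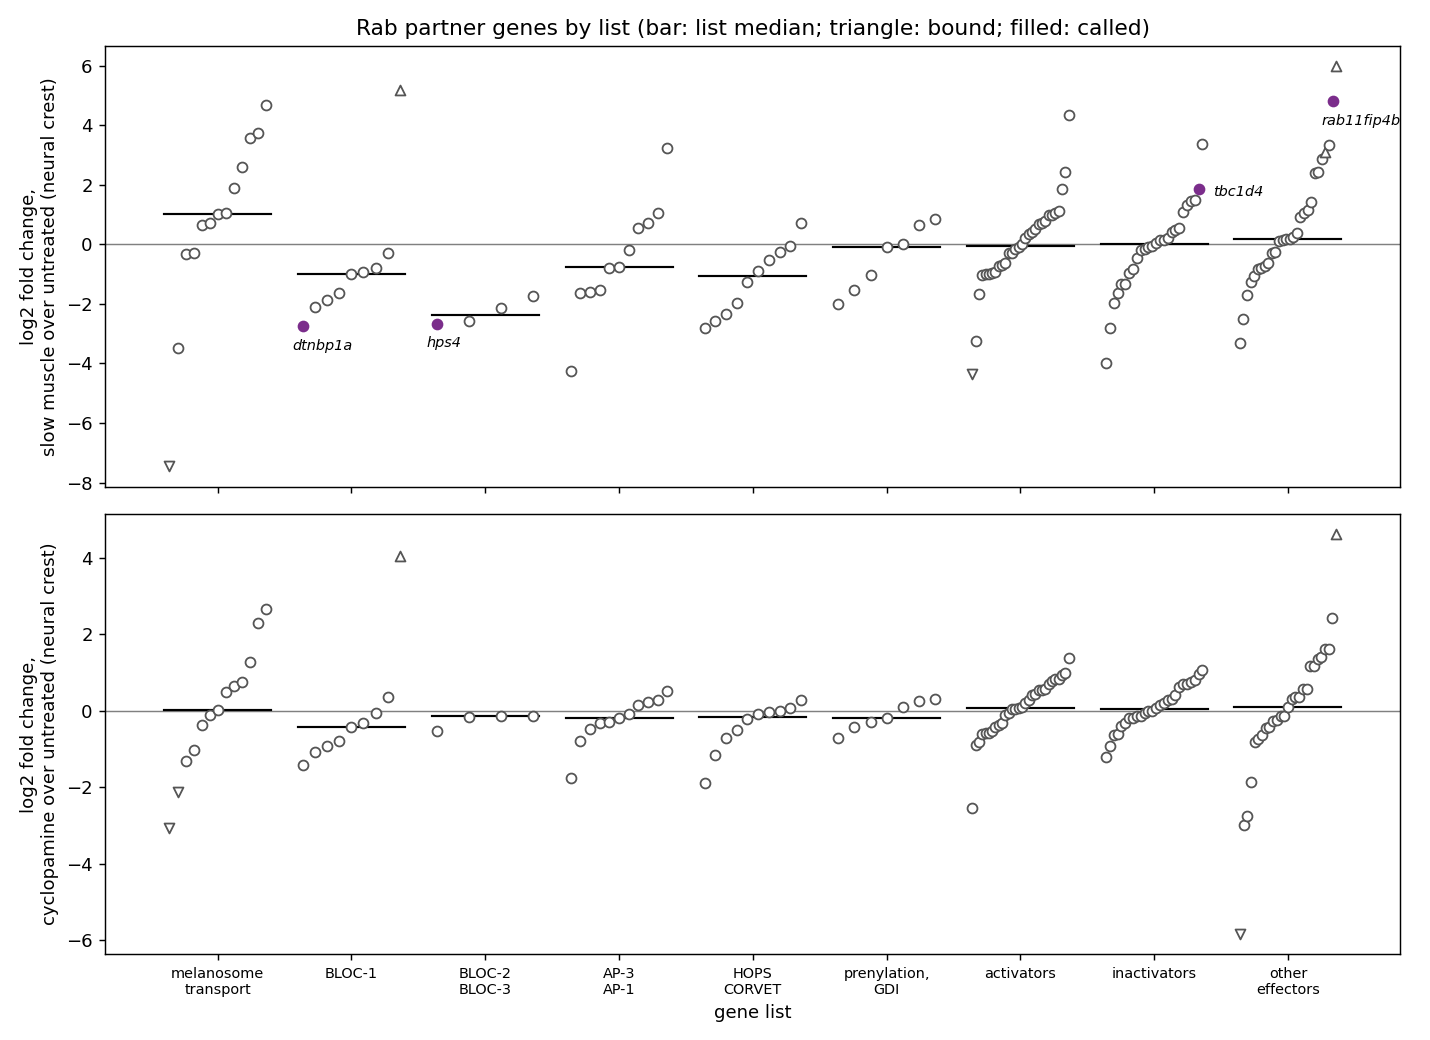
Log2 fold changes of the 138 tested partner genes in 9 lists, for slow muscle (upper) and cyclopamine neural crest (lower) over untreated neural crest, as points sorted within a list with a bar at the list's median. Triangles are bounds for genes at 0 in both libraries of a group, and the filled, named points are the 4 called genes, dtnbp1a and hps4 lower and tbc1d4 and rab11fip4b higher in slow muscle.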

How the data were processed

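Cells were sorted by FACS for mRFP or eGFP, and polyA RNA was prepared with a stranded kit and sequenced as paired reads, per the labels' protocols. The deposited values are whole-number read counts per gene. Per the submitters' processing notes, the tools were STAR, featureCounts of Subread, and DESeq2, with no version named. Neither genome build nor annotation nor strand setting is given in the sources used here; coordinates are therefore not printed. A deposited log2 table of the same libraries was not used.

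Counts were tested with edgeR 4.0.16 in R 4.3.3 (limma 3.58.1), with TMM, filterByExpr (minimum count 10, minimum total 15) and 3 groups in a single quasi-likelihood fit without covariates, which left 17701 genes. Its common dispersion came to 1.132 and its prior degrees of freedom to 2.94. Two-sided p-values were adjusted after Benjamini and Hochberg over all tested genes, and called below 0.05. The scripts were tested on simulated data. Standard errors derive from the test statistic. Alternatives were DESeq2 1.42.0, other filters and scalings, fewer libraries and a replicate block. Intervals of counting error are not given, and the floor of 3 counts covers counting error only.

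The members, the 7 roles, assigned by Rab number from general knowledge, and the 19 lists were chosen with earlier results of these data known. The lists are 9 of Rab partners and 10 of cell type markers, with 244 entries, of which 226 matched by symbol, 3 through the reference gene tables (myripa, myripb and rab11fip5b) and 15 did not match. Values in every library are given for expressed pigment organelle and cilium members, called members and the 5 with the highest mean CPM. Of each list up to 4 called members with the largest change are named, or with none called the 2 most abundant, and a single gene that this rule takes is left out of the text. Genes outside this rule are said to be chosen after their values were seen, as were rab7b, rab9a, rab3c and rab18b.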

Additional observations from a re-analysis of the deposited data

How the results depend on the processing

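Under 14 alternatives for slow muscle, the 4 Rab genes called lower were all called in every one that kept all libraries of both groups, and in those without a cyclopamine replicate. Counts of calls moved more. Rab genes called higher (0) became 1 without a filter on low counts, 2 with DESeq2 and 3 with only the 4 libraries compared. Over all genes, calls higher and lower (296 and 155) became 981 and 427 without a filter, 1838 and 889 with DESeq2 and 1608 and 760 with the 4 libraries, and lower calls became 242 with upper quartile scaling. For cyclopamine, calls over all genes (0 and 0) became 8 and 13 without a filter and 158 and 153 with DESeq2. The cause was not tested. Expressed Rab genes numbered 61 also under filterByExpr, and 63 with a count in any library. The median log2 fold change of all tested genes for slow muscle moved from 0.08 with TMM to −0.16 with upper quartile scaling and 0.16 with RLE.

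Leaving out single libraries gave 1 to 6 Rab genes lower and 0 to 3 higher in slow muscle, with 64 to 1991 genes higher and 41 to 1022 lower over all genes. For cyclopamine it gave 0 to 2 Rab genes lower and 0 higher, with 0 to 398 genes higher and 0 to 968 lower. Signs turned for uncalled genes only, in slow muscle rab2a (−0.16 with upper quartile scaling, −0.11 without slow muscle replicate 2) and rab34a (−0.12 without untreated replicate 2), and with cyclopamine rab38c (0.11 without untreated replicate 1, 0.19 without cyclopamine replicate 4), rab38b (0.30 without untreated replicate 2, 0.34 without cyclopamine replicate 3), rab34a (−0.16 without replicate 3) and rab23 (−0.09 without replicate 4). Over the fits without a library, the log2 fold change in slow muscle ranged from −0.11 to 0.20 for rab2a and from −0.12 to 0.76 for rab34a, and with cyclopamine from −0.30 to 0.19 for rab38c, −1.51 to 0.34 for rab38b, −0.16 to 1.18 for rab34a and −0.09 to 1.90 for rab23.

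Slow muscle and untreated neural crest share replicate numbers, but the deviations of same-numbered libraries correlated at r = 0.01 over 17701 genes, so pairs were not established. With the replicate block on 4 libraries, 1 Rab gene was higher (rab25b) and 6 lower, and 1483 and 570 of all genes. Cyclopamine libraries carry other numbers, so no block was possible there. With 2 libraries a group and a count at 0 in 4.92% to 24.6% of the expressed Rab genes per library, the errors of many low members were wide, up to 4.69 on the log2 scale in slow muscle.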

Other observations

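The count table held 6 further Rab symbols outside the name pattern, of which 3 were tested and 0 called. rab11al (ENSDARG00000014340) was at 48.9 and 68.2 CPM in slow muscle, 0 and 2.96 in untreated and 2.40 and 0 in cyclopamine neural crest (log2 fold change 5.31 ± 2.50 for slow muscle, edgeR adjusted p = 0.305, DESeq2 0.331). Slow muscle stood above all 4 neural crest libraries. rab14l was at 49.8 and 40.6 CPM in slow muscle and 41.6 and 33.4 in untreated neural crest (edgeR adjusted p = 0.798), and RAB35 at 6.01 and 19.4 against 3.74 and 8.46 (0.828). Both overlapped between these groups. RAB26 and one RAB19 entry were at 0 in all libraries, and the other RAB19 entry had 42 counts in slow muscle replicate 1 only.

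Of the marker lists without a call by edgeR in slow muscle, the 9 tested neuron markers, led by elavl3 and stmn2b, summed to 79.8 and 133 CPM in slow muscle, 224 and 224 in untreated and 367 and 270 in cyclopamine neural crest. Beside 5.01% of all tested genes, DESeq2 called 1 of them lower in slow muscle, elavl3 (adjusted p = 8.7e-04, edgeR 0.055), and 2 tested myeloid markers lower, lcp1 (0.0343, edgeR 0.277) and spi1b (0.0251, edgeR 0.223). The myeloid list, led by lcp1 and cebpa, summed to 45.2 and 50.5 CPM in slow muscle, 32.9 and 224 in untreated and 20.8 and 0.188 in cyclopamine neural crest, so that untreated replicate 2 stood apart from the other 5 libraries. Among the other lists in slow muscle, 6 of 8 neural crest markers were called lower, beside 0.876% of all tested genes (sox10, tfap2e, crestin and erbb3b the largest). Called higher, beside 1.67% of all tested genes, were 4 of 7 slow muscle markers (smyhc3, smyhc1, prox1a and prdm1a). So were 3 of 8 endothelium markers (lmo2, etv2 and fli1a) and 4 of 6 pronephros and ionocyte markers (foxi3a, cdh17, ca2 and atp1a1a.4). With cyclopamine, 0 genes of these lists were called by edgeR.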
